A study of Homo sapiens with 36 samples.

Results

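The mRNAs of 10 enzymes that make serine and pass its carbon to folate were followed in A549 cells kept without glucose and depleted of the transcription factor ATF4 or ATF6. They were taken by gene name from the deposited table of 60662 gene IDs, and each name matched 1 row. By compartment they fall into 3 enzymes of serine synthesis (PHGDH, PSAT1, PSPH), 2 enzymes of the cytosolic folate branch (SHMT1, MTHFD1) and 5 enzymes of the mitochondrial folate branch (SHMT2, MTHFD2, MTHFD2L, MTHFD1L, ALDH1L2).

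A549 is a line of human lung adenocarcinoma cells. All cultures were transfected with siRNA at 100 nM, either siATF4, siATF6 or the non-targeting siControl, and each transfection was later divided over wells. They were then kept in glucose-free medium (0 mM) or in medium with 25 mM glucose for 16 or 6 h, without pyruvate and with dialysed serum and glutamine in both. The 12 groups are therefore siATF4, siATF6 and siControl, each in 0 mM and in 25 mM glucose, each at 16 h and at 6 h, with 3 replicates labelled as biological in each. A knockdown leaves part of the target's mRNA, and all replicates are cultures of 1 cell line, so p-values measure the spread between cultures.

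De novo serine synthesis branches off glycolysis at 3-phosphoglycerate. PHGDH oxidises this intermediate, PSAT1 transfers an amino group from glutamate onto the product, and PSPH removes the phosphate to give serine. Serine hydroxymethyltransferases then split serine into glycine and a one-carbon unit on tetrahydrofolate, SHMT1 in the cytosol and SHMT2 in mitochondria. In mitochondria MTHFD2 or its paralogue MTHFD2L oxidises the unit, MTHFD1L releases it as formate, and ALDH1L2 can instead oxidise it to carbon dioxide with production of NADPH. MTHFD1, a trifunctional enzyme of the cytosol, takes formate back onto folate for purine and thymidylate synthesis. ATF4 is known to turn on several of these genes when amino acids or the endoplasmic reticulum are disturbed.

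RefSeq promoter windows (GRCh38.p14, 250 bases before to 50 after a start site) were on hand for 7 of the 10 enzymes, in 11 windows, and not for PSPH, SHMT2 and ALDH1L2. The letters TGATGNAA, the core of the element that ATF4 binds together with C/EBP proteins, were searched on both strands. They occurred in 1270 of 35097 windows of all genes (3.62%). Among the enzymes they occurred in MTHFD1L alone, as 1 site that 3 of its 4 windows share. The window of MTHFD1L at chr6:150866197-150866496 (plus strand) is printed with that site in capitals. Its cytosolic counterpart MTHFD1 (chr14:64388103-64388402, plus strand) is shown for contrast, and so are MTHFD2 (chr2:74198365-74198664, plus strand) and PSAT1 (chr9:78296875-78297174, plus strand), whose responses to deprivation passed the test of a difference between siATF4 and siControl cells. No window of these 3 genes holds the letters, which says only that they are not in this stretch.
MTHFD1L: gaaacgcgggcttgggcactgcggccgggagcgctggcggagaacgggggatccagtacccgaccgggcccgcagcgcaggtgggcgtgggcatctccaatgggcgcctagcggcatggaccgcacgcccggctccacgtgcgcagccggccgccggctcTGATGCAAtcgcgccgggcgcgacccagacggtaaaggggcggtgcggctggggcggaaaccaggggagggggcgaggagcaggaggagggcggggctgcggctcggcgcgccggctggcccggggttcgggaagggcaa
MTHFD1: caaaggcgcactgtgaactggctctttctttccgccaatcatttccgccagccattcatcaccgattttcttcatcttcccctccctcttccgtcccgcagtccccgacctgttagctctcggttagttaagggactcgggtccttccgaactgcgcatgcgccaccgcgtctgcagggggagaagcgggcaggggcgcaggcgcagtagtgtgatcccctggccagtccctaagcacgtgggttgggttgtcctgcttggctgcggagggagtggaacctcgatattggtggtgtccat
MTHFD2: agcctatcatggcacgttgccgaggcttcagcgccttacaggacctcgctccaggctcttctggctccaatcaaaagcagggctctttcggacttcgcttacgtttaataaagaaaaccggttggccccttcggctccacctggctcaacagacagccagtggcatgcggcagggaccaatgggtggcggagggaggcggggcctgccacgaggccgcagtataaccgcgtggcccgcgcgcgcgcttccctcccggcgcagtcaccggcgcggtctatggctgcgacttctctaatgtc
PSAT1: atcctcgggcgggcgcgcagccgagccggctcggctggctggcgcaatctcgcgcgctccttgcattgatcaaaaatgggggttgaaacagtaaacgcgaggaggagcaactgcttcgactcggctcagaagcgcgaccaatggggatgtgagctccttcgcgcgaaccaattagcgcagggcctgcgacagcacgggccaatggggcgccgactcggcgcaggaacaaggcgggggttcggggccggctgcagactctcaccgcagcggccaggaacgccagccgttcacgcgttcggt

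In 35 libraries the expected counts summed to between 39.4 and 78.7 M. Replicate 3 of siATF4 at 6 h without glucose (0 mM) failed: it held 2.87 M, and over genes above 1 CPM its correlation with any other library was at most -0.38. PSAT1, PSPH, MTHFD2 and MTHFD1L were at 0 in it, and it enters no value given here unless stated. In siControl and siATF6 at 6 h, replicate 2 went against its glucose labels. The log2 ratio of 0 to 25 mM glucose in these pairs had correlations of -0.69 and -0.64 with the changes of 1939 genes at 16 h, against 0.56 to 0.69 in the other 6 h pairs. The 5 epithelial markers summed to 3027 to 8492 CPM (counts scaled to a common library total) per library. Of 10 markers of other cell types, 7 stayed below 1 CPM in every library, CD3E was at 0, and COL1A1, at 2.68 to 39.0 CPM, made up most of the sum. That sum was lower without glucose, at 7.57 to 10.2 CPM in 0 mM and 19.9 to 22.8 CPM in 25 mM glucose in siControl cells at 16 h, and its part in the results was not tested. ATF4 mRNA was 190 ± 33.2 CPM with siATF4 and 460 ± 36.3 CPM with siControl in 0 mM glucose at 16 h (-1.29 ± 0.14 on the log2 scale, adjusted p = 0.000186), but 130 ± 10.5 and 157 ± 19.5 CPM in 25 mM glucose (-0.28 ± 0.14, adjusted p = 0.759). ATF6 mRNA was 15.4 ± 4.99 CPM with siATF6 and 91.0 ± 0.813 CPM with siControl in 0 mM glucose at 16 h (-2.58 ± 0.18, adjusted p = 4.85e-06). These adjusted p-values, like all below, are from edgeR's quasi-likelihood test with Benjamini-Hochberg adjustment over all genes tested and a threshold of 0.05, and log2 fold changes are given with their standard error.

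Divided by effective length, MTHFD2 had the highest median level of the 10 enzymes over the 35 libraries (234 CPM per kb), followed by PSAT1 (182 CPM per kb) and SHMT2 (103 CPM per kb). The lowest were MTHFD2L (6.36 CPM per kb) and ALDH1L2 (3.30 CPM per kb). ALDH1L2 also varied most between groups, with a 6.55-fold ratio of the highest to the lowest group mean, and MTHFD2 came next at 4.82-fold. MTHFD2L varied least, at 1.30-fold. Copies annotated as pseudogenes of these enzymes reached at most 0.0508 CPM in any library. The libraries carry no strand, and 27.2% of the annotated exon length of MTHFD2 overlaps SLC4A5 on the opposite strand, which was itself counted at no more than 1.33 CPM.

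**Figure D1:**
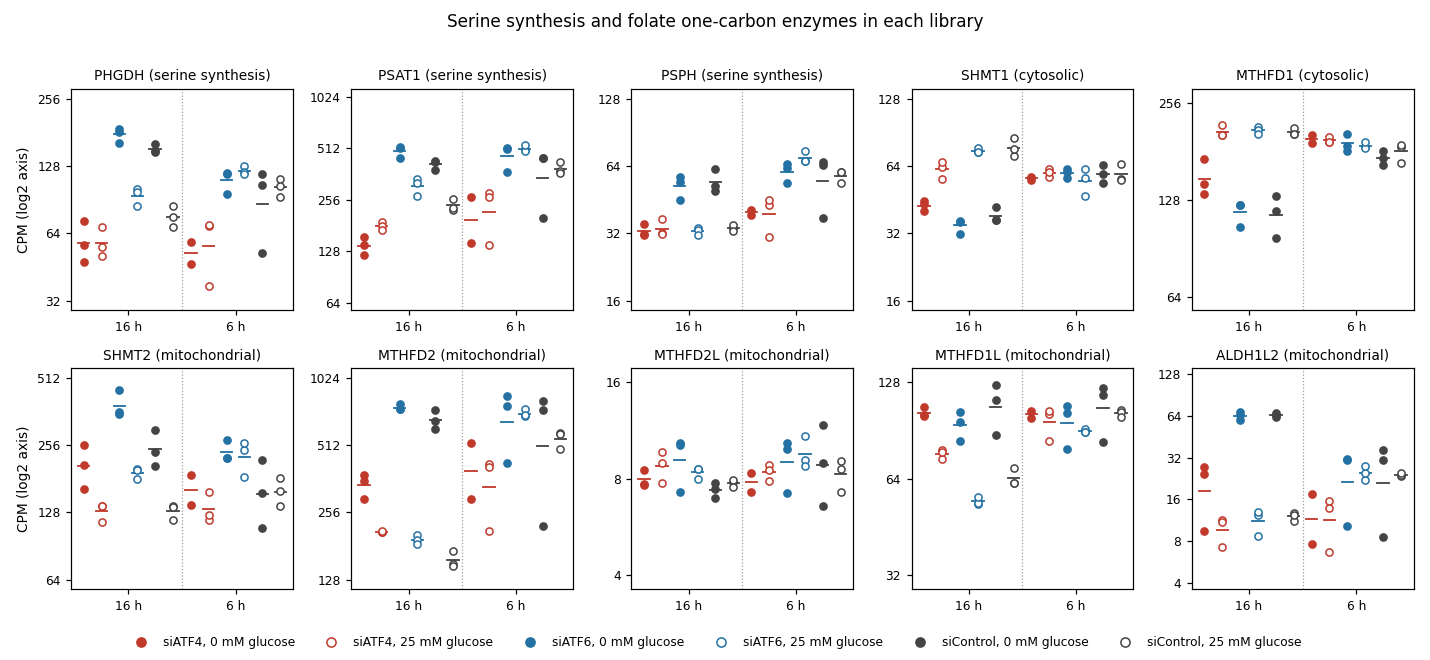
CPM (log2 axis) of the 10 enzymes in each of the 35 libraries, with siATF4, siATF6 and siControl at 16 h (left) and at 6 h (right); filled points are 0 mM and open points 25 mM glucose, and bars are geometric means. At 16 h the filled points lie above the open ones in siControl for 7 enzymes, below them for SHMT1 and MTHFD1, and together with them for MTHFD2L.

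After 16 h without glucose, siControl cells had more mRNA of the whole serine synthesis pathway and of 4 of the 5 mitochondrial enzymes, and less of both cytosolic enzymes. In all, 7 enzymes rose, 2 fell and 1 did not pass the test, where 29% of 18013 genes tested passed it, 14.6% higher and 14.5% lower. The median log2 fold change of the 10 enzymes was 0.77, beside 0.01 over all genes tested. As these are bulk RNA libraries, fewer cells that express a gene and less of its RNA per cell cannot be told apart.

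Among the serine synthesis enzymes, PHGDH, which catalyses the first step, was at 150, 161 and 149 CPM in 0 mM glucose and at 68.6, 84.8 and 75.7 CPM in 25 mM glucose in siControl cells at 16 h. PSAT1 was at 424, 431 and 383 CPM in 0 mM and at 222, 260 and 230 CPM in 25 mM glucose. PSPH, the final phosphatase, was at 49.5, 62.3 and 51.9 CPM in 0 mM and at 33.7, 34.9 and 32.9 CPM in 25 mM glucose. For all 3 enzymes the lowest library without glucose stood above the highest with glucose. The log2 fold changes were 1.00 ± 0.15 for PHGDH (adjusted p = 9.03e-05), 0.79 ± 0.11 for PSAT1 (adjusted p = 7.54e-05) and 0.69 ± 0.11 for PSPH (adjusted p = 0.000257).

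In the mitochondrial branch, MTHFD2, the NAD-linked dehydrogenase and cyclohydrolase, was at 734, 658 and 605 CPM in 0 mM glucose and at 172, 150 and 148 CPM in 25 mM glucose. ALDH1L2, the mitochondrial formyl-tetrahydrofolate dehydrogenase, was at 64.5, 62.3 and 67.4 CPM in 0 mM and at 11.2, 12.8 and 12.5 CPM in 25 mM glucose. Both sets of libraries were far apart, with log2 fold changes of 2.09 ± 0.11 for MTHFD2 (adjusted p = 2.18e-09) and 2.41 ± 0.29 for ALDH1L2 (adjusted p = 1.34e-05), the largest among the enzymes. SHMT2, which starts the mitochondrial branch, was at 300, 238 and 206 CPM in 0 mM and at 136, 134 and 118 CPM in 25 mM glucose (0.93 ± 0.16, adjusted p = 0.000388). MTHFD1L, the formate-releasing ligase, was at 87.6, 125 and 112 CPM in 0 mM and at 61.9, 68.9 and 61.8 CPM in 25 mM glucose (0.75 ± 0.12, adjusted p = 0.000151). The libraries of SHMT2 and MTHFD1L did not overlap either, but spread more widely without glucose. MTHFD2L, the paralogue of MTHFD2, was at 7.42, 7.77 and 6.96 CPM in 0 mM and at 7.82, 7.92 and 7.53 CPM in 25 mM glucose, overlapping ranges, with a log2 fold change of -0.07 ± 0.14 (adjusted p = 0.735).

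In the cytosolic branch the direction was the opposite one. SHMT1 was at 36.6, 41.9 and 36.9 CPM in 0 mM glucose and at 71.2, 85.0 and 76.5 CPM in 25 mM glucose (-1.01 ± 0.10, adjusted p = 1.81e-06). MTHFD1 was at 97.2, 132 and 118 CPM in 0 mM and at 204, 213 and 205 CPM in 25 mM glucose (-0.85 ± 0.12, adjusted p = 5.55e-05). Both genes were lower in every library without glucose than in any with it. Leaving out any 1 of the 6 libraries kept the count at 9 of 10. With the failed 6 h library in a fit of all 36, 2 enzymes passed, PHGDH (1.01, adjusted p = 0.0432) and ALDH1L2 (2.41, adjusted p = 0.00496). In that fit 531 of all genes passed, against 5229 in the fit reported.

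**Figure D2:**
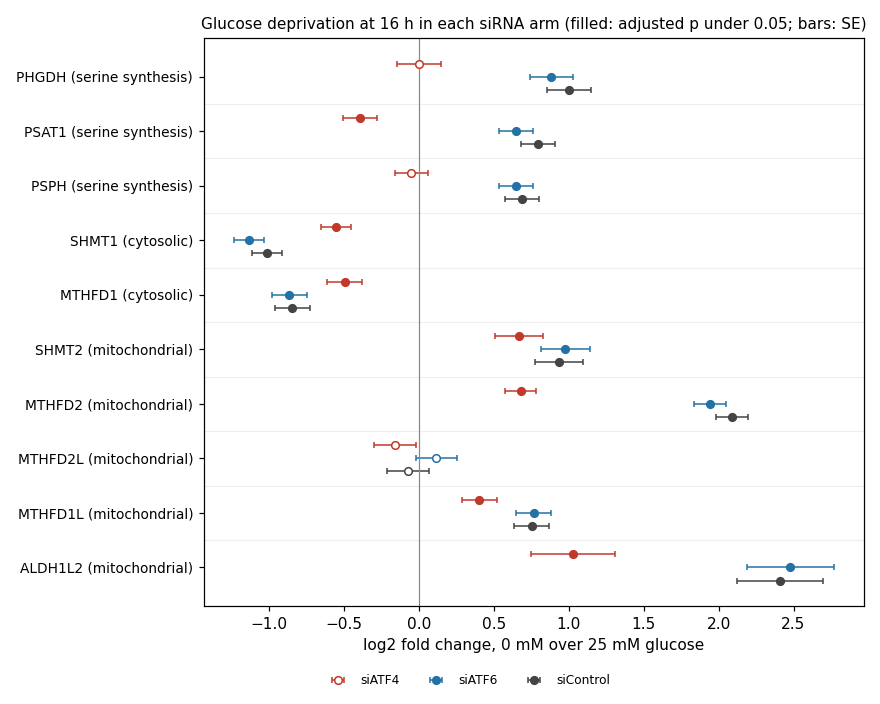
Log2 fold change of 0 mM over 25 mM glucose at 16 h (x axis, bars are standard errors) for each enzyme in siATF4, siATF6 and siControl cells; filled points passed an adjusted p of 0.05. The siATF6 and siControl points lie close together. The siATF4 points lie nearer to 0 for PHGDH, PSPH, SHMT1, MTHFD1, SHMT2, MTHFD2, MTHFD1L and ALDH1L2, and below 0 for PSAT1. Of these, the difference from siControl passed the test only for MTHFD2 and PSAT1.

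In siATF4 cells the same 16 h deprivation raised 4 enzymes, all of them mitochondrial, and lowered 3, while 29.1% of all genes passed the test, 14.9% higher and 14.2% lower. None of the serine synthesis enzymes rose. PHGDH was at 57.0, 47.5 and 72.5 CPM in 0 mM glucose and at 50.6, 68.4 and 55.8 CPM in 25 mM glucose, overlapping ranges with a log2 fold change of 0.00 ± 0.15 (adjusted p = 1.00). PSPH was at 31.5, 35.3 and 31.9 CPM in 0 mM and at 32.3, 37.1 and 31.7 CPM in 25 mM glucose (-0.05 ± 0.11, adjusted p = 0.767). PSAT1 fell, with 156, 140 and 122 CPM in 0 mM against 191, 181 and 170 CPM in 25 mM glucose and no overlap (-0.40 ± 0.11, adjusted p = 0.0157). In siControl cells PSAT1 had gone up, so its direction under deprivation was opposite in the siATF4 and siControl arms.

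Of the mitochondrial enzymes, all but MTHFD2L (-0.16 ± 0.14, adjusted p = 0.409) rose in siATF4 cells. MTHFD2 was at 374, 353 and 292 CPM in 0 mM and at 210, 208 and 212 CPM in 25 mM glucose (0.68 ± 0.10, adjusted p = 0.000191). SHMT2 was at 256, 163 and 208 CPM in 0 mM and at 136, 137 and 116 CPM in 25 mM glucose (0.67 ± 0.16, adjusted p = 0.00567). For both, the libraries without glucose lay above those with it. MTHFD1L was at 100, 107 and 101 CPM in 0 mM and at 73.9, 78.7 and 77.2 CPM in 25 mM glucose (0.40 ± 0.12, adjusted p = 0.0161). ALDH1L2 was at 24.5, 27.3 and 9.48 CPM in 0 mM and at 11.3, 7.29 and 11.1 CPM in 25 mM glucose (1.03 ± 0.28, adjusted p = 0.0121). For ALDH1L2 the groups overlapped, because replicate 3 without glucose lay within the range of the libraries with glucose. That library had the lowest median correlation with the others among the 35 (0.972).

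The cytosolic pair fell in siATF4 cells too. SHMT1 was at 43.1, 40.4 and 44.4 CPM in 0 mM and at 63.2, 66.5 and 56.2 CPM in 25 mM glucose (-0.56 ± 0.10, adjusted p = 0.000665), and MTHFD1 was at 134, 172 and 143 CPM in 0 mM and at 219, 203 and 203 CPM in 25 mM glucose (-0.50 ± 0.12, adjusted p = 0.00497). Neither pair of groups overlapped. Without siATF4 25 mM replicate 1, PSAT1 (-0.35, adjusted p = 0.0661) and MTHFD1L (0.38, adjusted p = 0.057) missed the threshold, and without siATF4 0 mM replicate 2 so did ALDH1L2 (0.76, adjusted p = 0.0531). A fit of the 6 libraries alone left only MTHFD2 past the threshold (0.67, adjusted p = 0.0493), and all 36 libraries left none. Of all genes these fits passed 1225 and 325, against 5233 in the fit reported.

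Set against siControl within 0 mM glucose at 16 h, siATF4 cells had less PHGDH, PSAT1, PSPH, MTHFD2 and ALDH1L2. These 5 fell and no enzyme rose in edgeR, where 12.4% of all genes passed, 7.32% higher and 5.09% lower. The values are those given above: PSAT1 averaged 139 ± 17.01 CPM with siATF4 and 413 ± 25.9 CPM with siControl (SD, n = 3 each; -1.59 ± 0.12, adjusted p = 3.57e-06). PHGDH averaged 59.0 ± 12.6 CPM with siATF4 and 153 ± 6.78 CPM with siControl (-1.39 ± 0.15, adjusted p = 0.000124). PSPH averaged 32.9 ± 2.06 CPM with siATF4 and 54.6 ± 6.85 CPM with siControl (-0.74 ± 0.11, adjusted p = 0.00148). All 3 serine synthesis enzymes were thus lower in every siATF4 library without glucose than in any siControl library without glucose.

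Of the mitochondrial enzymes, MTHFD2 averaged 340 ± 42.5 CPM with siATF4 and 666 ± 64.9 CPM with siControl in 0 mM glucose (-0.99 ± 0.10, adjusted p = 0.000124). ALDH1L2 averaged 20.4 ± 9.58 CPM with siATF4 and 64.7 ± 2.54 CPM with siControl (-1.68 ± 0.28, adjusted p = 0.00273). Here too the groups did not overlap. SHMT2 at 209 ± 46.8 CPM with siATF4 and 248 ± 47.5 CPM with siControl (-0.26 ± 0.16, adjusted p = 0.282), and MTHFD1L at 103 ± 3.70 CPM with siATF4 and 108 ± 19.0 CPM with siControl (-0.09 ± 0.12, adjusted p = 0.619), had overlapping libraries. MTHFD2L (0.09 ± 0.14, adjusted p = 0.679) and SHMT1 (0.13 ± 0.10, adjusted p = 0.378) also missed the threshold.

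MTHFD1 averaged 150 ± 19.8 CPM with siATF4 and 116 ± 17.4 CPM with siControl in 0 mM glucose. Every siATF4 library lay above every siControl library, but the log2 fold change of 0.36 ± 0.12 stayed short of the threshold (adjusted p = 0.0556). It passed without siATF4 replicate 1 (0.44, adjusted p = 0.0271) or siControl replicate 2 (0.46, adjusted p = 0.0441), and DESeq2 passed it as higher with all 6 libraries kept (0.37, adjusted p = 0.014). In a fit of the 6 libraries of this comparison alone, none of the 5 lower enzymes passed (adjusted p = 0.0879 for PSAT1 to 0.229 for PSPH and ALDH1L2), while their log2 fold changes stayed between -1.68 and -0.75. In that fit 0 of all genes passed, so the loss is not particular to the enzymes. With all 36 libraries PHGDH alone of the enzymes passed (-1.39, adjusted p = 0.0454), among 14 genes in all. The fit reported passed 2235 genes.

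In 25 mM glucose at 16 h none of the 10 enzymes differed past the threshold between siATF4 and siControl cells. Only 0.0444% of all genes, 8 of 18013, passed in edgeR, and 1248 had an unadjusted p under 0.05. DESeq2, which passed 170 genes, passed PSAT1 as lower (-0.41, adjusted p = 0.0465) and MTHFD2 as higher (0.41, adjusted p = 0.0144). In edgeR PSAT1, at 181 ± 10.5 CPM with siATF4 and 238 ± 19.7 CPM with siControl, gave -0.39 ± 0.11 (adjusted p = 0.336). MTHFD2, at 210 ± 1.78 CPM with siATF4 and 156 ± 13.3 CPM with siControl, gave 0.42 ± 0.10 (adjusted p = 0.222). Neither gene's libraries overlapped between the arms in 25 mM glucose. The MTHFD2 libraries of siATF4 cells were therefore below those of siControl without glucose and above them with glucose.

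Tested as a difference of the 2 deprivation responses at 16 h, siATF4 minus siControl, MTHFD2 (-1.41 ± 0.15, adjusted p = 0.000345) and PSAT1 (-1.19 ± 0.16, adjusted p = 0.00374) passed as lower. In this comparison 31 genes passed in all, 0.172% of those tested, and 0.161% as lower. PHGDH (-1.001 ± 0.21, adjusted p = 0.0706), PSPH (-0.74 ± 0.16, adjusted p = 0.0988) and ALDH1L2 (-1.38 ± 0.39, adjusted p = 0.269) missed the threshold in edgeR. Without siATF4 0 mM replicate 3, PHGDH passed (-1.18, adjusted p = 0.00806). DESeq2 passed both PHGDH (-0.98, adjusted p = 0.00225) and PSPH (-0.72, adjusted p = 0.00268), among 202 genes in all. With all 36 libraries edgeR passed no enzyme, and 0 of all genes. The differences for SHMT1 (0.46 ± 0.14), MTHFD1 (0.35 ± 0.16), MTHFD1L (-0.35 ± 0.16), SHMT2 (-0.27 ± 0.23) and MTHFD2L (-0.09 ± 0.20) all had adjusted p-values of 0.333 or more.

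**Figure D3:**
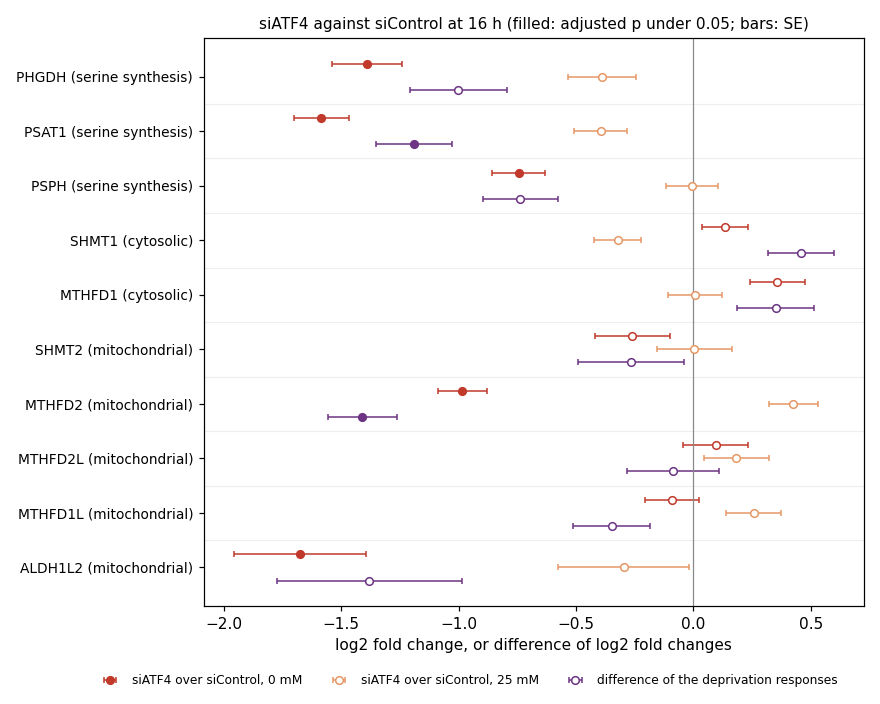
Log2 fold change of siATF4 over siControl at 16 h in 0 mM and in 25 mM glucose, and the difference of the deprivation responses (siATF4 minus siControl), for each enzyme with standard errors; filled points passed an adjusted p of 0.05. In 0 mM glucose the 5 filled points, from -1.68 to -0.74, are the serine synthesis enzymes, MTHFD2 and ALDH1L2; in 25 mM glucose no point is filled.

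In siATF6 cells deprivation for 16 h raised 7 enzymes and lowered 2, where 33.5% of all genes passed, 15.6% higher and 17.9% lower. MTHFD2 was at 780, 740 and 738 CPM in 0 mM and at 202, 192 and 184 CPM in 25 mM glucose (1.94 ± 0.11, adjusted p = 4.98e-09). ALDH1L2 was at 68.6, 64.4 and 59.6 CPM in 0 mM and at 8.69, 12.3 and 12.97 CPM in 25 mM glucose (2.48 ± 0.29, adjusted p = 8.45e-06). The other 5 that rose were PHGDH (0.88), PSAT1 (0.65), PSPH (0.65), SHMT2 (0.98) and MTHFD1L (0.77), and SHMT1 (-1.14) and MTHFD1 (-0.87) fell. No difference of the deprivation responses between siATF6 and siControl passed, for these enzymes or for any gene (0%), and the enzymes' differences lay between -0.15 and 0.19. In this comparison edgeR had 412 genes with an unadjusted p under 0.05, and DESeq2 passed 18 genes but none of the enzymes. With all 36 libraries, the deprivation response in siATF6 cells passed for 2 enzymes, SHMT1 (-1.11, adjusted p = 0.0461) and ALDH1L2 (2.50, adjusted p = 0.00295). There 831 of all genes passed for it, against 6033 in the fit reported.

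SHMT2 was the only enzyme past the threshold between siATF6 and siControl cells at 16 h, and only in 0 mM glucose. In 0 mM glucose at 16 h it was at 448, 359 and 352 CPM with siATF6 and at 300, 238 and 206 CPM with siControl, without overlap (0.62 ± 0.16, adjusted p = 0.039), and no other enzyme passed where 4.02% of all genes did, 1.11% as higher. In 25 mM glucose it was at 201, 197 and 181 CPM with siATF6 and at 136, 134 and 118 CPM with siControl, again without overlap (0.58 ± 0.16, adjusted p = 0.128), and 0.749% of genes passed. PHGDH, PSAT1 and MTHFD2 also lay above siControl without overlap in both media, but did not pass. Their log2 fold changes were 0.20, 0.25 and 0.16 in 0 mM (adjusted p = 0.26 to 0.522). In 25 mM glucose they were 0.32, 0.39 and 0.31 (adjusted p = 0.154 to 0.441). Some ranges nearly touched. The lowest siATF6 and highest siControl libraries were at 162.7 and 160.9 CPM for PHGDH in 0 mM glucose. They were at 85.2 and 84.8 CPM for PHGDH in 25 mM, and at 737.7 and 734.0 CPM for MTHFD2 in 0 mM. How many of all genes separate in this way was not counted. The call of SHMT2 in 0 mM glucose was lost without any 1 of 5 libraries (adjusted p = 0.0841 to 0.197). These were all 3 of siATF6 and replicates 2 and 3 of siControl. The call was also lost with all 36 libraries and with the 6 libraries alone. Of all genes 10 and 751 passed there, against 725 in the fit reported. DESeq2 kept the call in 0 mM glucose (0.64, adjusted p = 0.00512), where it passed 1569 of all genes. In 25 mM glucose DESeq2 passed both SHMT2 (0.57, adjusted p = 0.0376) and PSAT1 (0.38, adjusted p = 0.0375). The 6 libraries alone passed SHMT2 (0.55, adjusted p = 0.00947). Of all genes these passed 500 and 942, against 135 in the fit reported.

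The 2 folate branches were compared by summing CPM per kb over their enzymes in each library. In siControl cells at 16 h the mitochondrial sum was 563 ± 57.4 CPM per kb in 0 mM and 191 ± 11.9 CPM per kb in 25 mM glucose, and the cytosolic sum was 64.2 ± 7.89 CPM per kb in 0 mM and 120 ± 5.51 CPM per kb in 25 mM glucose (SD, n = 3 each). The log2 ratio of the mitochondrial to the cytosolic sum was 3.47, 2.96 and 2.98 in 0 mM and 0.81, 0.61 and 0.59 in 25 mM glucose. Put as a share, the cytosolic enzymes made up 8.28% to 11.4% of the folate branch mRNA without glucose and 36.3% to 39.8% with glucose. The sums are dominated by MTHFD2, which held 65.3% ± 0.447 of the mitochondrial sum in 0 mM and 45.1% ± 1.94 in 25 mM glucose. These are descriptions of the levels, and no test was run on the sums.

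With siATF6 the log2 ratio at 16 h was 3.63, 3.34 and 3.37 in 0 mM and 1.06, 1.02 and 1.00 in 25 mM glucose. With siATF4 it was 2.44, 1.97 and 2.06 in 0 mM and 0.98, 1.03 and 1.04 in 25 mM glucose. The difference of the group means between 0 and 25 mM glucose was 1.14 with siATF4, 2.42 with siATF6 and 2.46 with siControl. In 0 mM glucose the siATF4 libraries thus lay below the siControl ones, and in 25 mM glucose above them. The mitochondrial sum was 353 ± 39.6 CPM per kb with siATF4 and 563 ± 57.4 CPM per kb with siControl in 0 mM glucose, and the cytosolic sum 79.2 ± 6.57 CPM per kb with siATF4 and 64.2 ± 7.89 CPM per kb with siControl.

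Each pair of counterparts shifted by a different amount. In siControl at 16 h the log2 ratio of MTHFD2 to MTHFD1, per length, was 3.09 ± 0.335 in 0 mM and 0.14 ± 0.14 in 25 mM glucose, and that of SHMT2 to SHMT1 was 2.74 ± 0.31 in 0 mM and 0.81 ± 0.171 in 25 mM glucose. The log2 ratio of MTHFD1L to MTHFD1 was -0.09 ± 0.0428 in 0 mM and -1.69 ± 0.0565 in 25 mM glucose, so MTHFD1L stayed below or near its cytosolic counterpart in both media. In siATF4 cells SHMT2 to SHMT1 stood at 2.34 ± 0.283 in 0 mM and 1.14 ± 0.0384 in 25 mM glucose, and MTHFD2 to MTHFD1 at 1.74 ± 0.261 in 0 mM and 0.56 ± 0.0622 in 25 mM glucose.

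**Figure D4:**
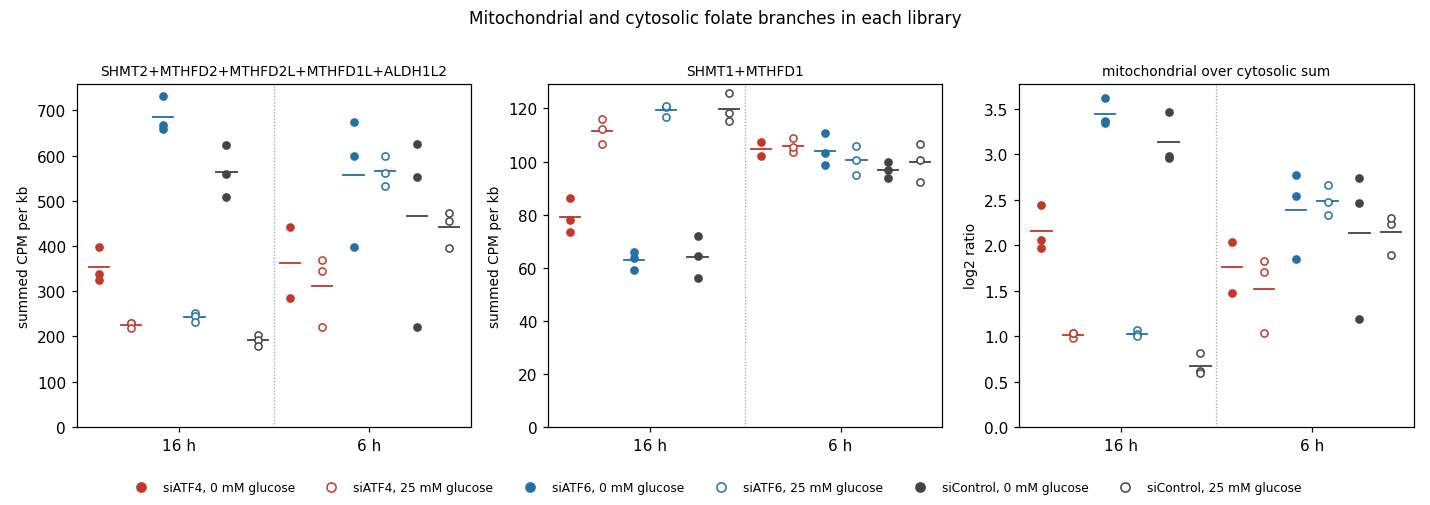
Summed CPM per kb of the 5 mitochondrial enzymes (left) and of the 2 cytosolic enzymes (middle), and the log2 ratio of the sums (right), in each of the 35 libraries at 16 h and at 6 h; filled points are 0 mM and open points 25 mM glucose, and bars are means. At 16 h all filled points lie above the open ones of the same siRNA in the ratio, with siATF4 at 1.97 to 2.44, siATF6 at 3.34 to 3.63 and siControl at 2.96 to 3.47 in 0 mM glucose.

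At 6 h none of the enzymes passed for deprivation in any of the 3 arms, and neither did any other gene in edgeR (0%). Unadjusted p-values under 0.05 numbered 695 with siATF4, 148 with siATF6 and 181 with siControl, and DESeq2 passed 0 genes with siATF4, 0 with siATF6 and 1 with siControl. In siControl cells at 6 h MTHFD2 was at 807, 221 and 735 CPM in 0 mM and at 580, 575 and 490 CPM in 25 mM glucose in replicates 1, 2 and 3. PSAT1 was at 447, 201 and 449 CPM in 0 mM and at 423, 377 and 367 CPM in 25 mM glucose. In both genes replicate 2 without glucose was far below every other siControl library at 6 h, and the other libraries without glucose lay above all those with glucose. Without the 6 h libraries of replicate 2, MTHFD2 passed as higher in siControl (0.53 ± 0.11, adjusted p = 0.034), while ALDH1L2 (0.47 ± 0.13, adjusted p = 0.104) and MTHFD1L (0.23 ± 0.08, adjusted p = 0.177) did not. In that fit 736 of all genes passed in siControl, where 0 had passed with replicate 2. In siATF6 343 genes passed, none of them an enzyme. For siATF4 that fit leaves replicate 1 alone in 0 mM glucose, so its calls are not given. Replicate 2 was doubted for moving against its labels, which is what the test measures. The p-values and counts without it do not allow for that choice.

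The cytosolic enzymes did not separate by glucose at 6 h. SHMT1 was at 53.5, 64.8 and 59.1 CPM in 0 mM and at 56.1, 55.5 and 65.6 CPM in 25 mM glucose in siControl cells, and MTHFD1 at 173, 165 and 181 CPM in 0 mM and at 187, 167 and 190 CPM in 25 mM glucose. Ranges overlapped for both genes, with log2 fold changes of 0.00 ± 0.11 and -0.06 ± 0.08. The log2 ratio of the mitochondrial to the cytosolic sum was 2.74, 1.19 and 2.47 in 0 mM and 2.23, 2.30 and 1.89 in 25 mM glucose, with replicate 2 the lowest of the 6.

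siATF4 and siControl cells did not differ past the threshold at 6 h in any enzyme, nor in any gene (0%), with 968 unadjusted p-values under 0.05 in 0 mM and 755 in 25 mM glucose. In edgeR ATF4 itself, the target of siATF4, was among the genes that did not pass in either medium. DESeq2 passed 37 genes in 0 mM and 21 in 25 mM glucose, none of them an enzyme. In 25 mM glucose PHGDH was at 68.7, 37.4 and 69.5 CPM with siATF4 and at 112, 93.0 and 104 CPM with siControl (-0.81 ± 0.26, adjusted p = 1.00). PSAT1 was at 281, 140 and 265 CPM with siATF4 and at 423, 377 and 367 CPM with siControl (-0.76 ± 0.30, adjusted p = 1.00). For both enzymes the groups did not overlap. In 0 mM glucose PHGDH was at 58.4 and 46.6 CPM in the 2 usable siATF4 libraries and at 118, 52.1 and 105 CPM with siControl, which overlap (-0.80 ± 0.30, adjusted p = 0.934). With siATF6 no enzyme passed either, where 0.311% of genes passed in 0 mM and 0.496% in 25 mM glucose. SHMT2 gave 0.57 ± 0.22 (adjusted p = 0.291) in 0 mM and 0.53 ± 0.22 (adjusted p = 0.359) in 25 mM glucose.

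Between 6 and 16 h the levels in siControl cells moved in both media. In 25 mM glucose MTHFD2 was at 172, 150 and 148 CPM at 16 h and at 580, 575 and 490 CPM at 6 h (-1.81 ± 0.30, adjusted p = 0.00446). PSPH (-0.78 ± 0.16, adjusted p = 0.0212) and MTHFD1L (-0.67 ± 0.13, adjusted p = 0.0187) were lower at 16 h as well, so 3 enzymes fell where 0.273% of 19030 genes passed, 0.252% as lower. Neither MTHFD2 nor PSPH nor MTHFD1L overlapped between the times. MTHFD2 missed the threshold without any 1 of the 3 16 h libraries (-1.88 to -1.77, adjusted p = 0.051 to 0.0675). PSPH and MTHFD1L missed it without 6 h replicate 1 or 2 or any 16 h library. All 36 libraries passed no enzyme, and 1 gene in all. Without all 6 h libraries of replicate 2, MTHFD2 (adjusted p = 3.05e-09), PSPH (adjusted p = 0.000471), MTHFD1L (adjusted p = 0.00209) and also PSAT1 (-0.73, adjusted p = 0.000934) passed as lower. In that fit 169 of all genes passed, against 52 in the fit reported.

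In 0 mM glucose 3 enzymes rose, 2 fell and 5 did not pass between 16 and 6 h, where 13.4% of genes passed, 6.21% higher and 7.21% lower. SHMT1 was at 36.6, 41.9 and 36.9 CPM at 16 h and at 53.5, 64.8 and 59.1 CPM at 6 h (-0.62 ± 0.10, adjusted p = 0.000141), and MTHFD1 at 97.2, 132 and 118 CPM at 16 h and at 173, 165 and 181 CPM at 6 h (-0.58 ± 0.10, adjusted p = 0.000182). The libraries of the 2 times did not overlap. PHGDH (0.74 ± 0.22, adjusted p = 0.0206), SHMT2 (0.62 ± 0.20, adjusted p = 0.0344) and ALDH1L2 (1.36 ± 0.42, adjusted p = 0.0301) rose. Without 6 h replicate 2 of siControl in 0 mM glucose these were 0.46 (adjusted p = 0.16), 0.41 (adjusted p = 0.238) and 0.95 (adjusted p = 0.156), and each was also lost without at least 1 of the 16 h libraries. Without all 6 h libraries of replicate 2, ALDH1L2 passed (0.95, adjusted p = 0.0323), PHGDH (adjusted p = 0.0516) and SHMT2 (adjusted p = 0.239) did not, and MTHFD2L passed as lower (-0.48, adjusted p = 0.0413). Of all genes 1864 passed there, against 2555 in the fit reported. MTHFD2 in 0 mM glucose gave 0.18 ± 0.30 (adjusted p = 0.757), so between the times its level moved past the threshold in 25 mM glucose and not in 0 mM.

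The deprivation response in siControl cells was larger at 16 h than at 6 h for 6 enzymes and more negative for SHMT1 and MTHFD1, where 8.62% of genes passed, 4.09% higher and 4.53% lower. MTHFD2 (1.99 ± 0.42, adjusted p = 0.00286), ALDH1L2 (2.35 ± 0.59, adjusted p = 0.0121), PHGDH (1.17 ± 0.30, adjusted p = 0.0138), SHMT1 (-1.01 ± 0.15, adjusted p = 4.36e-05) and MTHFD1 (-0.78 ± 0.14, adjusted p = 0.000583) passed under each omission of 1 library. PSPH (0.73 ± 0.22, adjusted p = 0.0347), SHMT2 (0.93 ± 0.28, adjusted p = 0.0362) and MTHFD1L (0.69 ± 0.18, adjusted p = 0.0171) did not, and were also lost without all 6 h libraries of replicate 2 (0.48, 0.70 and 0.53). There MTHFD2 stood at 1.56 (adjusted p = 3.08e-06), PSAT1 passed at 0.61 (adjusted p = 0.0327), and 883 of all genes passed. All 36 libraries passed no enzyme and 25 of all genes, against 1641 in the fit reported.

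The genes around the pathway were read from lists of general knowledge. Among 9 carriers of serine and glycine, 5 rose, 1 fell and 3 did not pass in siControl cells after 16 h without glucose, with a median of 0.77, beside 29% of all genes past the threshold (14.6% higher and 14.5% lower). SLC1A4, a neutral amino acid exchanger (1.82, adjusted p = 1.65e-08), SLC6A9, a glycine transporter (1.61, adjusted p = 6.01e-08), and SLC1A5, the glutamine exchanger (0.77, adjusted p = 2.35e-05), rose. SFXN1, the serine carrier of mitochondria, fell (-0.75, adjusted p = 0.000152). With siATF4 in 0 mM glucose 5 of the 9 were lower than with siControl, where 5.09% of all genes were, among them SLC1A4 (-1.35, adjusted p = 1.07e-05), SLC6A9 (-1.02, adjusted p = 0.000186) and SLC1A5 (-0.84, adjusted p = 0.000251), and 2 were higher, SFXN1 and SFXN2, where 7.32% of all genes were. The deprivation response itself was lower with siATF4 for SLC1A4 (-1.47, adjusted p = 0.000421), SLC1A5 (-0.97, adjusted p = 0.00667) and SLC6A9 (-1.03, adjusted p = 0.0126).

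Among genes of folate uptake and retention in siControl cells at 16 h without glucose, the proton-coupled folate transporter SLC46A1 (-0.85, adjusted p = 3.01e-05) and the reduced folate carrier SLC19A1 (-0.82, adjusted p = 0.00149) fell, and FPGS, which retains folates in the cell, rose (0.42, adjusted p = 0.0482). TYMS, the thymidylate synthase, fell (-1.38, adjusted p = 5.13e-06). These named genes do not stand for the direction of their lists. Of the 4 genes of the glycine cleavage system, GLDC fell (-1.39, adjusted p = 8.11e-07) and 3 did not pass, a share near the 29% of all genes. FOLR1 and FTCD were too low to be tested.

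Downstream of serine, 2 of 7 genes of the methionine cycle and transsulfuration rose and 2 fell, with a median of 0.21, where 14.6% of all genes were higher and 14.5% lower. CBS (1.82, adjusted p = 2.26e-05) and CTH (1.42, adjusted p = 0.00515), which convert homocysteine and serine to cysteine, rose, while MTR (-0.75, adjusted p = 0.036) and MAT2A (-0.41, adjusted p = 0.0259) of the methionine cycle fell. Of 6 purine synthesis genes 1 fell, PAICS (-0.47, adjusted p = 0.00133), and 5 did not pass, a share near the 14.5% of all genes that were lower. Of the serine racemase and dehydratases, SRR fell (-0.63, adjusted p = 0.00207), SDSL did not pass, and SDS was too low to be tested. With siATF4 in 0 mM glucose, TYMS (0.96, adjusted p = 0.00162) and GLDC (0.57, adjusted p = 0.011) were higher than with siControl. CBS was lower (-1.05, adjusted p = 0.01). In this comparison 12.4% of all genes passed, 5.09% as lower. GLDC was the only 1 of 4 glycine cleavage genes to pass. CBS was the only 1 of 7 in its list, and 2 of 6 purine synthesis genes were higher.

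Over the 18 libraries of 16 h, the genes whose log2 level followed that of MTHFD2 most closely among 11210 expressed genes were FBXO42 (Pearson's r = 0.991), TMEM268 (0.990), VEGFA (0.988), ULBP1 (0.985) and CARS1 (0.984). For PHGDH they were ASNS (0.956), PECR (0.952), PSAT1 (0.936), GPT2 (0.919) and ATF4 (0.919), the last being the target of siATF4. For MTHFD1 they were PARPBP (0.989), CDK1 (0.981), FOXM1 (0.979), PRC1 (0.978) and CDCA7 (0.977). These values describe likeness over libraries that share the same 6 groups, and no test was applied.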

How the data were processed

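Poly(A) RNA of the A549 cultures was sequenced without strand information. Per the submitters' processing notes the authors used fastp, STAR and RSEM with GRCh38; versions and annotation release are not given in the sources used here. The authors deposited a table of RSEM expected counts per gene ID and library, which were rounded to whole numbers here. CPM values use totals scaled by TMM, and values per kb divide by the deposited effective length.

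Tests used edgeR 4.0.16 under R 4.3.3 (filterByExpr with minimum count 10 and total 15, TMM, robust quasi-likelihood F tests, Benjamini-Hochberg over all genes, threshold 0.05). One mean per group was fitted over the 18 libraries of 16 h, the 17 usable libraries of 6 h, or all 35 for comparisons of times. DESeq2 1.42.0 and the other alternatives are given in the closing section. Replicates differed by more than counting noise (mean chi-square per gene at least 9.07). Overlap of libraries is described for single enzymes, and the share of all genes without overlap was not counted. Exon overlaps come from GENCODE on GRCh38. The 10 enzymes, all named, the lists, of which up to 4 members with the smallest adjusted p are named, and the choice of libraries were made with earlier results of these data known. Some members of the folate lists, which include genes past the threshold in either direction, are not reported here, so these lists are given without counts. The pipeline was tested on simulated data.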

Additional observations from a re-analysis of the deposited data

Results flagged for a closer look

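Differences between groups in the response to glucose deprivation, by edgeR's test of the difference itself, were found for 2 enzymes between siRNAs and for 8 between times. Between siATF4 and siControl cells at 16 h, the log2 response (siATF4 minus siControl) differed by -1.19 for PSAT1, which fell with siATF4 (-0.40) and rose with siControl (0.79), and by -1.41 for MTHFD2, which rose in both (0.68 with siATF4 and 2.09 with siControl).

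Between 16 and 6 h in siControl cells, the response (16 h minus 6 h) differed by 1.17 for PHGDH, 0.73 for PSPH, 0.93 for SHMT2, 1.99 for MTHFD2, 0.69 for MTHFD1L and 2.35 for ALDH1L2, and by -1.01 for SHMT1 and -0.78 for MTHFD1. The 6 h side of each rests on 3 pairs of libraries of which replicate 2 went against its glucose labels. Its part was measured by leaving out the 6 h libraries of replicate 2, which gave 0.96 for PHGDH, 1.56 for MTHFD2, 1.94 for ALDH1L2, -0.90 for SHMT1 and -0.76 for MTHFD1, all still past the threshold, and 0.48 for PSPH (adjusted p = 0.0907), 0.70 for SHMT2 (adjusted p = 0.191) and 0.53 for MTHFD1L (adjusted p = 0.0673), which no longer passed in edgeR.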

How the results depend on the processing

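The counts of enzymes past the threshold are given per setting, and calls over all genes moved between settings too. Over all genes, a fit of all 36 libraries passed 325 for deprivation at 16 h with siATF4 (5233 in the fit reported). It passed 831 with siATF6 (6033) and 531 with siControl (5229). For siATF4 over siControl in 0 mM glucose it passed 14 at 16 h (2235), but 2167 at 6 h (0). For the difference between siATF4 and siControl, DESeq2 passed 202 (31). With all 36 libraries the enzyme counts for deprivation at 16 h became 0 with siATF4 (7 in the fit reported). They became 2 with siATF6 and 2 with siControl (9 each). In that fit they were 1 for siATF4 over siControl in 0 mM glucose at 16 h (5), 0 for siATF6 over siControl there (1), 0 for the difference of responses between siATF4 and siControl (2), 1 for siATF4 over siControl in 0 mM at 6 h (0), and 0 for each comparison of times (5 in 0 mM, 3 in 25 mM, 8 for the response). With the libraries compared alone they were 1 for deprivation with siATF4 at 16 h, 0 for siATF4 and 0 for siATF6 over siControl in 0 mM at 16 h, 1 for siATF6 in 25 mM (0), and 2, 5 and 5 for the comparisons of times in the order above. DESeq2 gave 2 for siATF4 and 2 for siATF6 over siControl in 25 mM at 16 h (0 each) and 4 for the difference between siATF4 and siControl (2). Without the 6 h libraries of replicate 2, deprivation in siControl at 6 h gave 1 (0). Without the filter on low counts 16 over 6 h in 0 mM gave 3. Of all genes, 736 (0) and 1706 (2555) passed in these 2 settings. Leaving out 1 library at a time gave 0 to 1 for siATF6 over siControl in 0 mM at 16 h, 2 to 5 for 16 over 6 h in 0 mM, 0 to 3 in 25 mM and 5 to 8 for the difference of responses between times. Of 699 values of called enzymes under all alternatives, 699 kept their direction and 576 their call. Across all 2630 values 157 changed sign, 0 of them past the threshold in either setting. The shift of the branch ratio with deprivation moved by less than its spread without division by length. Plain totals cannot change it, because the scaling of a library cancels in a ratio within that library. The causes were not tested.

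Deviations of libraries with the same number correlated at a median of 0.256 at 16 h and 0.37 at 6 h, against -0.239 and -0.193 for different numbers, and 14 of 18 and 17 of 17 libraries correlated best with one of their own number. Deviations from the group mean sum to 0 within a group, so the values for the same and for different numbers are not independent. The match of numbers is a hint of pairing from the data. Pairs of 0 and 25 mM glucose with the same siRNA, time and number may share a transfection. Their medians were 0.216 at 16 h and 0.337 at 6 h. The lowest same-number values were -0.318 and -0.0573, and the labels tie no number to a shared batch. The numbers were therefore not taken as pairs, and the tests reported above do not allow for a pairing. With a replicate block the counts were 4 for the difference between siATF4 and siControl at 16 h, where PHGDH and PSPH were added, 6 for siATF4 over siControl in 0 mM at 16 h, where MTHFD1 was added as higher (adjusted p = 0.0282), 1 for siATF6 over siControl in 25 mM at 16 h (SHMT2, adjusted p = 0.0186), 1 in 0 mM at 6 h, and 6 for 16 over 6 h in 25 mM. A replicate block by transfection kept 2 for the difference between siATF4 and siControl, with 12 genes called over all genes against 31.

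Each group rests on at most 3 cultures. Whether their spread or the depth limits these comparisons was not tested. At 6 h siATF4 in 0 mM glucose has 2 usable libraries, of which replicate 1 alone stays where replicate 2 is left out.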
